A study of Mus musculus with 6 samples.

Results

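The genes followed here set the shape and the removal of mitochondria, and they were read in sorted mouse heart muscle cells: Mfn1, Mfn2 and Opa1 for fusion, Dnm1l, Fis1 and Mff for fission, and Pink1, Bnip3, Bnip3l and Fundc1 for mitophagy. They were taken by symbol from the deposited gene table, which held all 10 of them among 23404 genes. Messenger RNA had been sequenced from cardiomyocytes of C57BL/6J mice, sorted on their own green fluorescence, read in the FITC channel, and on forward scatter (FSC), which grows with particle size. FITChigh cells had high FITC and low FSC signal, FITCdim cells the reverse, and each group had 3 libraries that the series text calls biological replicates. The labels name no genetic change or treatment in either group, and the title of the series gives the aim as the isolation of highly purified ventricular cardiomyocytes.

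Mitochondria join and divide continuously. Fusion of the outer membrane is carried out by the mitofusins (Mfn1 and Mfn2) and fusion of the inner membrane by Opa1, all of them GTPases, while the GTPase Drp1 (gene Dnm1l) is recruited from the cytosol by outer membrane adaptors such as Mff to divide them. Damaged mitochondria are removed by mitophagy, either after the kinase Pink1 accumulates on the outer membrane and activates the ubiquitin ligase Parkin, or through receptors in the outer membrane (Bnip3, Bnip3l, Fundc1) that bind the autophagosome directly. Adult ventricular myocytes are densely packed with mitochondria, and deletion of fusion or fission genes in the mouse heart is known to cause cardiomyopathy.

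With no block for replicates, none of the 10 genes passed the test of a difference between the gates when all genes were tested together. By limma with Benjamini-Hochberg adjustment 0 were called higher and 0 lower in FITChigh, against 2.51% and 13.5% of the 12907 genes tested (16.1% in either direction). At an unadjusted p below 0.05 there were 2, Bnip3 and Dnm1l, and limma-voom on recovered read counts also called 0, with 2 below 0.05 unadjusted. Titles share a tag across the gates, which the labels do not explain. With a block by that tag 4 of the 10 (Bnip3, Dnm1l, Pink1 and Mfn1) were called higher, against 8.24% of all genes. The unit of level is the deposited adjusted read count, which is a read count shifted towards a common library size. A fold is 2 to the power of the difference in mean log2(value + 1), and its 95% interval is for that gene alone, with no adjustment for the number of genes. The folds lay between 0.858 for Fundc1 and 1.31 for Bnip3, and no interval went beyond 0.615 at the lower end or 1.61 at the upper end. Of the 10 genes 8 had a positive and 2 a negative log2 fold change, with a median of 0.19, while the median over all genes tested was -0.006 and 49.4% were positive. In 5 genes (Mfn1, Mfn2, Dnm1l, Pink1 and Bnip3) all 3 FITChigh values lay above all 3 FITCdim values. That was so for 11.4% of all genes tested. In 0 genes all FITChigh values lay below, which was so for 20.2% of all genes.

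Both the signs and that count depend on how libraries are scaled. With median-of-ratios factors they were unchanged, with 8 genes positive and the same 5 without overlap. The deposited totals were larger in FITChigh by 0.20 on the log2 scale. With every library scaled to one common total, 0 of the 10 genes were without overlap and higher in FITChigh, and 1, Bnip3l, was without overlap and lower. Over all genes the shares were then 3.63% and 27.9%, and the median log2 difference of the whole table was -0.201. Of the 10 genes 5 were then positive, with a median of -0.01. Bnip3l and Fundc1 lay below the median of the whole table on that scale, and the others above it. After quantile normalization 4 were positive with a median of -0.01, below the 0.134 of all genes.

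**Figure D1:**
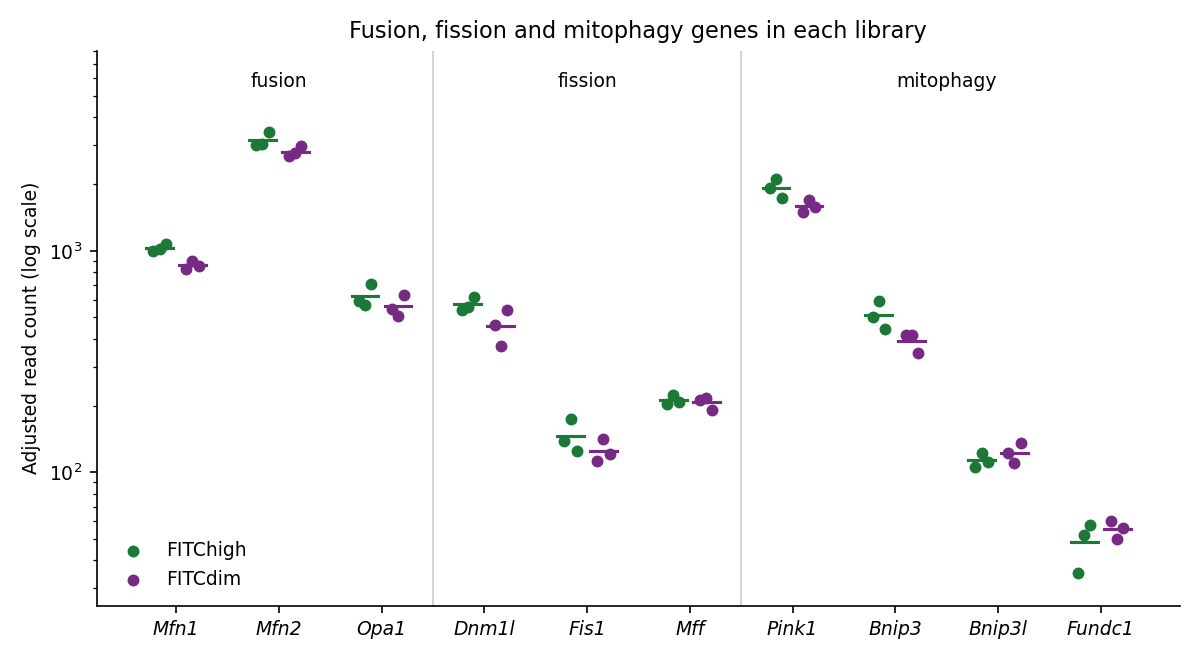
Adjusted read counts (log axis) of the 10 genes in each of the 6 libraries; points are libraries, short lines are group means, green is FITChigh and purple FITCdim. The group means differ by at most the 1.31-fold of Bnip3, and the genes span from about the level of Fundc1 (means of 48.3 and 55.4) to that of Mfn2 (3161 and 2802).

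Divided by the length of the gene's merged exons, which allows genes to be compared, the order of levels was led by Pink1 and Mfn2 in both gates. Pink1 stood at 719 ± 70.4 adjusted read counts per kb in FITChigh and 597 ± 37.6 in FITCdim, and Mfn2 at 623 ± 48.3 and 552 ± 28.4 (SD, n = 3 each). The values of these leading genes overlapped within each gate. Bnip3 (277 ± 40.9 and 212 ± 22.2 per kb) and Mfn1 (210 ± 7.87 and 176 ± 7.42 per kb) followed without overlap between neighbours. Fis1, Dnm1l, Opa1 and Mff lay between 89.5 and 132 per kb as group means. Among these 4, the values of Fis1 and Dnm1l overlapped in both gates, as did those of Opa1 and Mff, whose order by mean differed between the gates. Bnip3l, at 34.5 ± 2.54 and 37.4 ± 3.81 per kb, and Fundc1, at 21.0 ± 5.09 and 24.1 ± 2.32 per kb, were lowest (SD, n = 3 each). With the longest coding transcript as the length, the order over all 6 libraries was the same for all 10 genes.

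Mfn2 had about 3 times the level of its paralog Mfn1. Mfn2 encodes the mitofusin that also links mitochondria to the sarcoplasmic reticulum (chromosome 4, 147873599 to 147904704, minus strand, mm10). Its adjusted read counts were 2992, 3050 and 3442 in FITChigh and 2676, 2772 and 2959 in FITCdim. The 2 groups came within 32.7 counts of each other without overlapping, and the fold was 1.13 (95% interval 0.924 to 1.37, limma adjusted p = 0.45). Mfn1 (chromosome 3, 32529465 to 32579239, plus strand) had 999, 1019 and 1073 adjusted read counts in FITChigh and 831, 903 and 857 in FITCdim. Its libraries were the tightest of the 10 genes by the mean of both gates, with a coefficient of variation of 3.75% in FITChigh and 4.22% in FITCdim. The fold was 1.19 (95% interval 0.998 to 1.43, limma adjusted p = 0.19 with no block and 0.036 with a block by title tag). Per kb, the ratio of Mfn2 to Mfn1 averaged 2.97 ± 0.119 over FITChigh and 3.14 ± 0.188 over FITCdim libraries (SD, n = 3 per gate), with overlapping values. Multiplying a library by a common factor cannot move this ratio, whereas quantile normalization can.

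Opa1, the inner membrane fusion GTPase that also holds cristae junctions closed (chromosome 16, 29579334 to 29654884, plus strand), overlapped between the gates. It had 594, 568 and 712 adjusted read counts in FITChigh and 546, 507 and 634 in FITCdim. The fold was 1.11 (95% interval 0.906 to 1.36, limma adjusted p = 0.53).

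Dnm1l, the gene of the fission GTPase Drp1 (chromosome 16, 16312230 to 16358959, minus strand), had the second largest positive difference of the 10 genes. Its adjusted read counts were 542, 560 and 617 in FITChigh and 464, 372 and 538 in FITCdim. The FITCdim libraries were widely spread, and the highest of them lay 4.46 counts under the lowest FITChigh library. The fold was 1.26 (95% interval 1.02 to 1.57, limma adjusted p = 0.14 with no block and 0.021 with a block by title tag). Without FITCdim replicate 3, the highest FITCdim library, the difference passed with no block (log2 fold change 0.46, limma adjusted p = 0.047). It did not pass when any of the other 5 libraries was left out, and without FITCdim replicate 2, the lowest, it was 0.20 (adjusted p = 0.49). The ratio of Opa1 to Dnm1l per kb was 0.790, 0.733 and 0.832 in FITChigh and 0.851, 0.982 and 0.850 in FITCdim. All 3 FITChigh ratios lay below the FITCdim ratios, the nearest being 0.832 and 0.850. This ratio was picked among several such ratios after their values were seen, and was not tested. An antisense gene is annotated over part of Dnm1l and another over part of Bnip3. Whether counting used strand is not given in the sources used here, so reads of such partners cannot be told apart from those of the gene.

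The 2 outer membrane genes of fission were low next to Dnm1l in reads, but close to it per kb. Mff, the adaptor that recruits Drp1 (chromosome 1, 82724890 to 82752394, plus strand), had 203, 222 and 209 adjusted read counts in FITChigh and 212, 218 and 192 in FITCdim. These values were interleaved, and the fold was 1.02 (95% interval 0.834 to 1.25, limma adjusted p = 0.91), the nearest to 1 of the 10 genes. Fis1, an outer membrane protein first known for fission (chromosome 5, 136953275 to 136966234, plus strand), had 138, 175 and 124 in FITChigh and 112, 142 and 121 in FITCdim. They overlapped as well (fold 1.16, 95% interval 0.903 to 1.49, limma adjusted p = 0.46). Summed per kb, the 3 fusion genes stood to the 3 fission genes as 2.62 ± 0.294 in FITChigh and 2.63 ± 0.0627 in FITCdim (SD, n = 3 per gate).

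**Figure D2:**
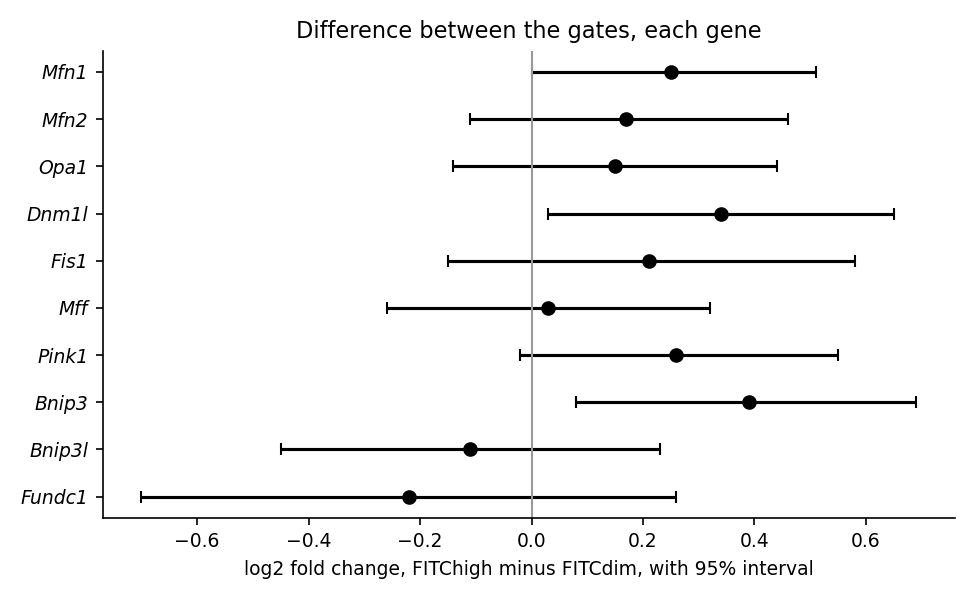
Log2 fold change of each gene, FITChigh minus FITCdim (points), with its 95% interval from limma (bars, no adjustment for the number of genes). The intervals of Bnip3 and Dnm1l lie above 0, those of the other 8 include 0, and, with no block, none of the 10 passed after adjustment over all genes.

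Pink1 belongs to the ubiquitin route of mitophagy and Bnip3 is 1 gene of the receptor route. As deposited, both had all FITChigh values above all FITCdim values, as had 11.4% of all genes. With one common total neither had. The promoters of Pink1 and Bnip3 are shown because Bnip3 is a known hypoxia-inducible gene. The data on hypoxia-induced genes are set beside it below. The windows run from 250 bases before to 50 bases after the RefSeq start (GRCm38.p6, gene strand, which is the minus strand for both: Bnip3 at chr7:138909457-138909756, Pink1 at chr4:138326247-138326546). Capitals mark the core of a hypoxia response element, ACGTG or GCGTG on either strand, overlaps included.
Bnip3: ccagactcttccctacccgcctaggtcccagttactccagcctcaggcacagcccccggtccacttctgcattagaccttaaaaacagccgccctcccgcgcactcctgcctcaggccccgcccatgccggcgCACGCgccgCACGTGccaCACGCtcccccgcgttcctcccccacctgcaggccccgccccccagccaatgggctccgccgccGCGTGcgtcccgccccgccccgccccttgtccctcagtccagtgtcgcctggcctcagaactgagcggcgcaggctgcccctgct
Pink1: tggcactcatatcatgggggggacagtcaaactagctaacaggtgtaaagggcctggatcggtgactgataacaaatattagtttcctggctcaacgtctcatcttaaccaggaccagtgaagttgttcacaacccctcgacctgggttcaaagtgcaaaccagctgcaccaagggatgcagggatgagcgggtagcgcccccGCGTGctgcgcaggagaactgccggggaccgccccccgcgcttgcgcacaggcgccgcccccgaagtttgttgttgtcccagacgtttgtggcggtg
The Bnip3 window held 5 matches in 4 places, 2 of them being both strands of 1 CACGTG, and the Pink1 window held 1. Of 32817 mouse promoter windows of this length 43.8% held at least 1 match and 1.66% at least 5. The table held windows for 9 of the 10 genes (not Bnip3l), and 5 of the 9 had a match in at least 1 window. These 9 genes had 14 windows, so that count per gene cannot be set against the share per window. The Bnip3 window had the highest GC content of the 14, at 71.7%, and the shares over all windows were not matched for GC content. The element of the estrogen-related receptors, TNAAGGTCA, was on neither strand in any of the 9 and in 1.28% of all windows. CACGTG was found in 1 of the 9 genes and TGACG in 3, and in 7.15% and 20.8% of all windows. Motifs were chosen after the values had been seen, and a match is a description of letters and not of binding.

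Pink1, the kinase that marks damaged mitochondria (chromosome 4, 138313409 to 138326307, minus strand), had 1915, 2112 and 1736 adjusted read counts in FITChigh and 1503, 1702 and 1582 in FITCdim. The lowest FITChigh library lay just above the highest FITCdim library. The fold was 1.20 (95% interval 0.989 to 1.46, limma adjusted p = 0.21 with no block and 0.030 with a block by title tag). Its partner Parkin (listed as Park2) was scarce, at 19.8 ± 2.31 and 13.7 ± 5.65 adjusted read counts (SD, n = 3 each), and did not pass (log2 difference 0.58, SE 0.36, adjusted p = 0.32). Parkin was named after its values were seen.

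Bnip3 had the largest difference of the 10 genes, and with no block it did not pass. Bnip3 encodes an outer membrane receptor of mitophagy with a BH3 domain (chromosome 7, 138890836 to 138909519, minus strand). Its adjusted read counts were 505, 595 and 444 in FITChigh and 417, 415 and 345 in FITCdim. All FITChigh values were higher, and both gates were spread by over 10% of their mean (coefficient of variation 14.8% and 10.5%). The fold was 1.31 (95% interval 1.06 to 1.61, limma adjusted p = 0.085 with no block and 0.0065 with a block by title tag). Without FITChigh replicate 3, the lowest FITChigh library, it passed with no block (log2 fold change 0.49, limma adjusted p = 0.048). It did not pass when any of the other 5 was left out, and was 0.28 without FITChigh replicate 2 (adjusted p = 0.28) and 0.29 without FITCdim replicate 3 (adjusted p = 0.25).

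The paralog Bnip3l, also called Nix, the receptor that clears mitochondria from maturing red blood cells (chromosome 14, 66985239 to 67008877, minus strand), lay in the other direction. It had 106, 122 and 111 adjusted read counts in FITChigh and 122, 111 and 135 in FITCdim, which overlapped. The fold was 0.925 (95% interval 0.732 to 1.17, limma adjusted p = 0.70). A processed pseudogene of Bnip3l is annotated on another chromosome, and how reads shared with it were assigned is not given in the sources used here. Per kb, Bnip3 stood to Bnip3l as 8.43, 8.60 and 7.04 in the FITChigh libraries and as 6.05, 6.65 and 4.50 in the FITCdim libraries. Multiplying a library by a common factor cannot move this ratio either, whereas quantile normalization can. Its groups did not overlap. It was picked among 7 such ratios and was not tested.

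Fundc1, the third receptor, whose binding to the autophagosome is set by phosphorylation (chromosome X, 17556564 to 17572325, minus strand), was the least abundant and the least precise. It had 35.2, 51.8 and 57.8 adjusted read counts in FITChigh and 60.5, 49.8 and 55.9 in FITCdim, from 34 to 99 reads per library. FITChigh replicate 1 was low and the other values were interleaved. The fold was 0.858 (95% interval 0.615 to 1.20, limma adjusted p = 0.58), an interval that holds both lower and higher levels in FITChigh. Without FITChigh replicate 1 the log2 fold change was -0.012, against -0.22 with it.

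Among the regulators of fusion and fission 3 genes were called. Over all genes 2.51% were called higher and 13.5% lower. Of 13 tested regulators of fusion, 1 was called higher, 0 lower and 12 not (median log2 difference 0.31). In 6 of the 13, counted only as deposited, all FITChigh values lay above all FITCdim values, against 11.4% of all genes. With one common total 0 were called and the median was 0.11. Of all genes 0.318% were then called higher and 17% lower, and their median was -0.201. The riser was Fam73b, now named Miga2, an outer membrane protein that promotes mitofusin action, with 223 ± 17.7 adjusted read counts against 155 ± 13.7 (SD, n = 3 per gate, log2 difference 0.52, SE 0.15, limma adjusted p = 0.020). The most abundant, the prohibitin Phb2, stood at 0.33 (adjusted p = 0.11). Of 13 tested regulators of fission, 1 was called higher, 1 lower and 11 not (median 0.02). All FITChigh values lay above all FITCdim values in 2 of these and below in 1, against 11.4% and 20.2% of all genes. Mtfp1, an inner membrane protein that promotes fission, rose to 469 ± 72.0 from 316 ± 50.6 (SD, n = 3 per gate, log2 difference 0.57, SE 0.16, limma adjusted p = 0.019). Inf2, a formin that assembles actin at the sites of fission and is not restricted to muscle, was lower, at 8.80 ± 3.16 against 59.6 ± 6.21 (SD, n = 3 per gate, log2 difference -2.68, SE 0.31, limma adjusted p = 1.2e-05). The most abundant, the anchoring protein Akap1, stood at 0.26 (adjusted p = 0.17). With one common total the calls of Fam73b and Mtfp1 were lost (adjusted p = 0.18 and 0.13), and that of Inf2 was not (3.4e-06).

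Among the adaptors 1 gene was called, and in the autophagosome core none. Of 15 tested mitophagy receptors and adaptors besides the 10 genes, 1 was called higher, 0 lower and 14 not (median log2 difference 0.17). Over all genes 2.51% were called higher and 13.5% lower. All FITChigh values lay above all FITCdim values in 4 of the 15 and below in 1, against 11.4% and 20.2% of all genes. Optn, optineurin, an adaptor between ubiquitin and the autophagosome, rose to 428 ± 43.5 from 306 ± 49.3 adjusted read counts (SD, n = 3 per gate, log2 difference 0.49, SE 0.15, limma adjusted p = 0.034). With one common total, where 0.318% of all genes were called higher, it did not pass (adjusted p = 0.23). The most abundant, Sqstm1 (p62), stood at 0.24 (adjusted p = 0.29). In the autophagosome core 0 of 25 genes were called by limma (median 0.07), led in level by Map1lc3a at 0.21 (adjusted p = 0.49). All FITChigh values lay above all FITCdim values in 2 of the 25 and below in 1. The 7 genes of the outer membrane import complex, on which Pink1 is held at damaged mitochondria, had 0 calls (median 0.30). So had the 11 genes of the cristae-organizing MICOS complex and its partners (median 0.35) and 5 genes of mitochondrial transport (median 0.13). Their most abundant members were Tomm70a at 0.24 (adjusted p = 0.26), Immt at 0.35 (adjusted p = 0.072) and Trak1 at 0.11 (adjusted p = 0.69). In 3 of the 7, 5 of the 11 and 2 of the 5 genes all FITChigh values lay above all FITCdim values, and in 0 below.

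Nuclear genes of mitochondrial energy production included 11 called higher in FITChigh as deposited. Of 40 genes of oxidative phosphorylation 11 were higher and 0 lower (median log2 fold change 0.42), against 2.51% and 13.5% of all genes. Cox6a2, a muscle subunit of cytochrome c oxidase, stood at 0.91, Ndufs6 of complex I at 0.76 and Cycs, cytochrome c, at 0.72 (limma adjusted p = 0.0098, 0.0037 and 0.0021), while Atp5b, the most abundant, did not pass (0.37, adjusted p = 0.21). Of 12 genes of mitochondrial proteins from other compartments 3 were higher and 0 lower (median 0.39). These were the import motor subunit Timm44 at 0.56, the chaperone Hspa9 at 0.49 and the outer membrane channel Vdac2 at 0.42 (limma adjusted p = 0.0081, 0.017 and 0.041), and the most abundant, the ADP/ATP carrier Slc25a4, did not pass (0.40, adjusted p = 0.23). Of the oxidative phosphorylation genes 5 were called higher with one common total, 3 after quantile normalization and 0 with a common sarcomere sum. Of all genes 0.318%, 3.62% and 0.0465% were called higher under the same scalings. The median log2 fold changes of the oxidative phosphorylation genes were then 0.22, 0.17 and -0.14, and those of all genes -0.201, 0.134 and -0.546. Of the 12 other genes 0, 1 and 0 were called higher under these scalings. Whether the difference between gates was itself different between these lists and the 10 genes was not tested.

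**Figure D3:**
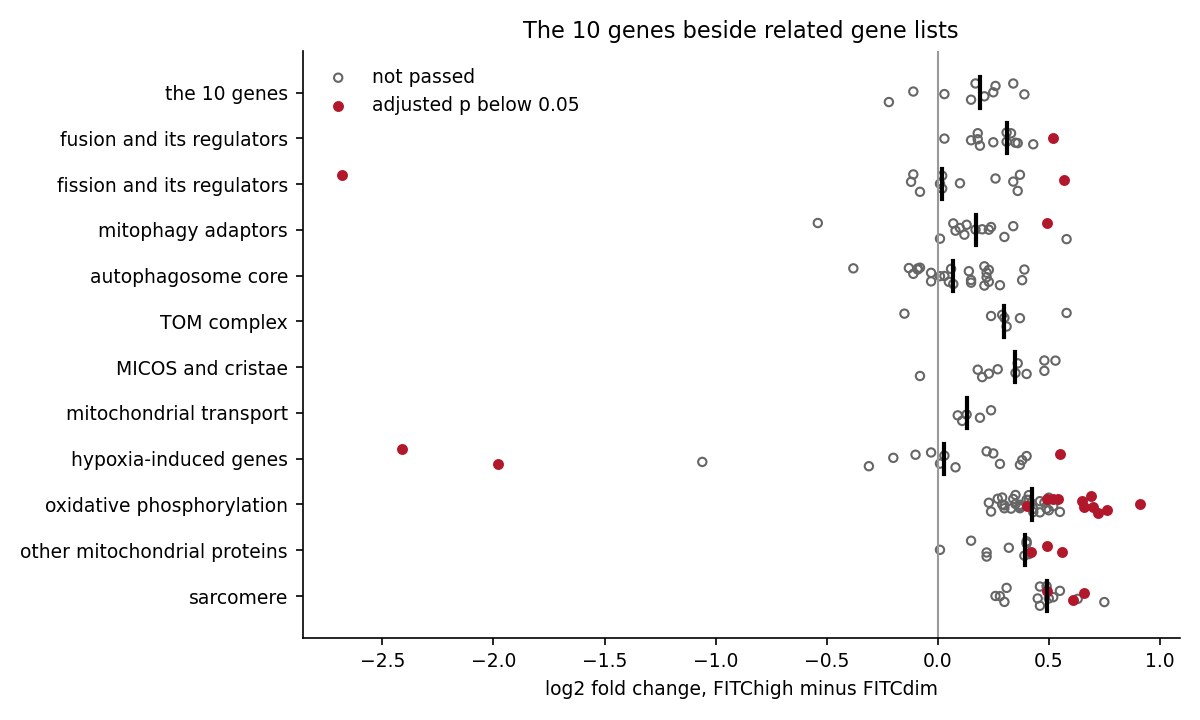
Log2 fold change, FITChigh minus FITCdim, of the 10 genes and of the genes of 11 related lists; each point is a gene, filled where its limma adjusted p was below 0.05, and black lines are list medians (vertical scatter has no meaning). The 10 genes have a median of 0.19 and no filled point, and oxidative phosphorylation has a median of 0.42 with 11 filled points.

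Genes known to be induced by hypoxia, a list fixed for comparison with Bnip3, held calls of either sign. Of 17 tested, 1 was called higher, 2 lower and 14 not (median log2 difference 0.03), against 2.51% higher and 13.5% lower of all genes. All FITChigh values lay above all FITCdim values in 4 and below in 4, against 11.4% and 20.2% of all genes. Vegfa, the vascular growth factor and the most abundant, rose to 1797 ± 96.8 from 1225 ± 25.5 adjusted read counts (SD, n = 3 per gate, log2 difference 0.55, SE 0.12, limma adjusted p = 0.0052). Ndrg1, a stress-induced gene, was lower by a log2 difference of -2.41 (adjusted p = 2.1e-06), as did Pfkfb3, an activator of glycolysis, at -1.98 (adjusted p = 1.2e-04). Both falls passed with one common total as well, and the rise of Vegfa did not (adjusted p = 0.068). On that scale 0.318% of all genes were called higher and 17% lower.

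The markers of the cells showed what else moved with the gates. Both gates were rich in cardiomyocyte transcripts: 10 markers, led by Myh6, summed to 364566 to 386930 adjusted read counts in FITChigh and 222404 to 282965 in FITCdim, with 1 called higher and 0 lower. Endothelial markers were lower in FITChigh for 10 of 10 genes, with sums of 685 to 974 against 4894 to 5605, led by Fabp4. Atrial markers were lower for 6 of 6 (202 to 448 against 1170 to 2481, led by Nppa) and fibroblast markers for 7 of 7 tested (53.5 to 77.7 against 406 to 797, led by Dcn, with Tcf21 at 0 in FITChigh). Leukocyte markers were lower for 6 of 6 tested (66.3 to 99.2 against 323 to 744, led by Lyz2, with Fcgr1 at 0 in FITChigh). Of 8 markers of smooth muscle and pericytes 6 were lower (sum 1383 to 1836 against 1880 to 2475), and the most abundant, Abcc9, which myocytes also express, did not pass. Of 5 red blood cell markers only 3 were listed with values, and these were under the level tested, Hba-a1 and Hba-a2 at 0 in every library. Whether red blood cells were absent was not tested. The part of these other cells in the values of the 10 genes was not tested. Fewer cells of a type and less RNA per cell cannot be told apart in bulk samples.

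Measured against the contractile genes instead of the whole library, the 10 genes had negative differences, as had most genes of the table. A list of 16 sarcomere genes, of which 3 were called higher and 0 lower, summed to 384958 to 418539 adjusted read counts in FITChigh and 241860 to 300335 in FITCdim. With each library scaled to a common sum of that list, the log2 fold changes of all 10 genes were negative, from -0.18 for Bnip3 to -0.78 for Fundc1. Mff at -0.54, Bnip3l at -0.68 and Fundc1 at -0.78 were then called lower (limma adjusted p = 0.023, 0.010 and 0.023). That is 3 of 10 against 39.0% of all genes tested on this scale. All FITChigh values lay below all FITCdim values in 6 of the 10, against 50.5% of all genes. Over all genes tested the median was -0.546 on that scale, and 8 of the 10 genes lay above it, with Bnip3l and Fundc1 below.

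**Figure D4:**
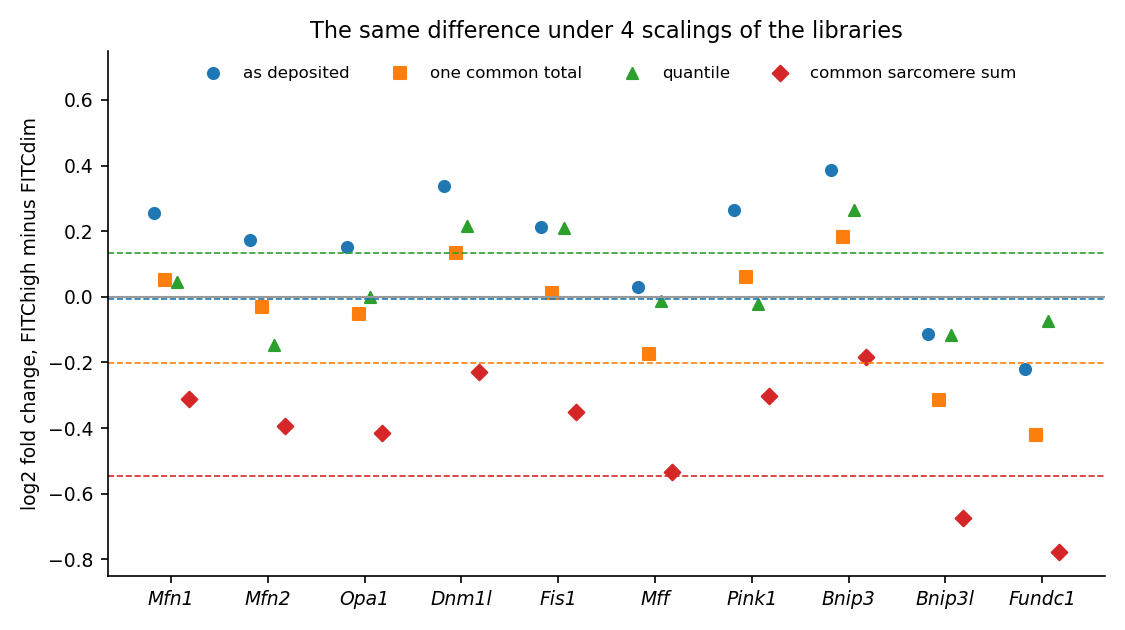
Log2 fold change, FITChigh minus FITCdim, of the 10 genes under 4 scalings of the libraries; dashed lines in the same colours are the medians of all genes tested under each. As deposited 8 of 10 lie above 0, and with a common sarcomere sum all 10 lie below 0 while the median of all genes lies at -0.546.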

How the data were processed

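Polyadenylated RNA of 6 sorted mouse samples was sequenced as paired reads from a stranded library kit, per the labels' protocols. STAR 2.5, edgeR and mm10 were used, per the submitters' processing notes; which program counted reads, on which annotation and whether by strand, is not given in the sources used here. The table deposited by the authors holds a signal value for each gene in each library: a read count adjusted towards a common library size, which is neither a raw count nor CPM. Of 23410 gene lines 6 were garbled and left out.

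To learn the depth, the adjustment was undone (a negative binomial quantile mapping, dispersion 0.0203), and at least 99.996% of values per library came out whole within 0.1. There were 1589825 to 2931045 reads in FITChigh libraries and 1705626 to 3345994 in FITCdim. Recovered reads served depth and 1 alternative test (limma-voom), added after the data were seen.

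The 12907 genes with values of 1 or more in 3 or more libraries entered limma 3.58.1 (R 4.3.3) on log2(value + 1), with a mean-variance trend, empirical Bayes and no block, two-sided, FITChigh minus FITCdim. Benjamini-Hochberg adjustment ran over all of them, with a threshold of 0.05, and the script was checked on simulated data. Adding 1 understates the folds of low genes. The p-values describe only how these libraries vary. Replicate numbers follow accession order. Exon lengths and positions are from GENCODE M21 (GRCm38, the build of mm10) and promoter sequences from RefSeq (GRCm38.p6).

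The members and lists were chosen with earlier results of these data known. Named genes are the 10 members and, per related list, the most abundant gene and up to 3 called genes with the largest change, and per cell type list the most abundant. Alternatives were other pseudocounts, filters and scalings, robust estimation, a block by title tag and leaving out each library.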

Additional observations from a re-analysis of the deposited data

How the results depend on the processing

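The counts of called genes among the 10 stayed at 0 in both directions under the other pseudocounts and filters, the common total, quantile normalization, median-of-ratios factors, robust estimation and limma-voom. With a common sarcomere sum 3 were lower. Leaving out 1 library gave 0 to 1 higher. Over all genes 324 were higher and 1748 lower. With one common total 41 were higher, and with a common sarcomere sum 6 were higher and 5035 lower. Leaving out 1 library gave 67 to 341 higher and 1152 to 1672 lower. Higher genes were 15.6% of the calls as deposited.

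Titles share a tag across the gates, which the labels do not explain. Deviations of same-tag libraries from their group means correlated, across genes, at 0.0711, 0.125 and 0.175. Each was above the correlations with the other tags (-0.122 to -0.00807). Deviations within a group sum to 0, so a positive same-tag correlation makes the others negative on balance. Their sign therefore adds no information. Whether the tag marks paired samples is not stated, and the main test did not use it. With a block by this tag 4 of the 10 genes and 1064 of all genes were higher, against 0 and 324 without it. The 4 were Bnip3, Dnm1l, Pink1 and Mfn1, with limma adjusted p = 0.0065, 0.021, 0.030 and 0.036.

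Signs turned for differences that had not passed. With a common sarcomere sum the log2 fold changes were -0.31 for Mfn1, -0.40 for Mfn2, -0.42 for Opa1, -0.23 for Dnm1l, -0.35 for Fis1, -0.54 for Mff, -0.30 for Pink1 and -0.18 for Bnip3. With one common total they were -0.032 for Mfn2, -0.053 for Opa1 and -0.17 for Mff. After quantile normalization, where the median of all genes was 0.134, they were -0.15 for Mfn2, -0.001 for Opa1, -0.013 for Mff and -0.02 for Pink1. For Mff, leaving out 1 library gave -0.023 to 0.067. The cause of these turns was not tested. Fundc1, with 34 to 99 reads per library, is limited most by depth.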
